A study of Mus musculus with 2 samples.

Results

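Promoter arrays for the mouse name most of their probes after a single gene, but 1474 regions carry the names of 2 genes joined by a hyphen. These shared promoters were taken as every annotated, non-control spot whose name holds exactly 1 hyphen with a gene name of 3 or more characters on each side, and each name on a chromosome was 1 region. They held 15902 of the 474380 probes, with 759 regions on array 1 and 715 on array 2, and they were set beside 16687 regions named for 1 gene, among 18548 named regions in all. The measurement was chromatin immunoprecipitation for Tcf3 in feeder-free E14 cells, a line of mouse embryonic stem cells with no stated genetic change or treatment. Immunoprecipitated DNA was labelled with Cy5 and input DNA with Cy3, so that a log2 ratio above 0 marks DNA richer in the immunoprecipitate than the median probe of its array. The 2 arrays carry different probes, so every region was measured once, with no replicate and no control immunoprecipitation, and no test between samples was possible. SDs below are those among the neighbouring probes of a set and are not errors between experiments.

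Genes that lie head to head, transcribed away from each other from a common stretch of DNA, are frequent in mammals. Many of these bidirectional promoters are CpG islands without a TATA box, and many serve housekeeping genes of mitochondria, DNA repair, chaperoning and RNA processing, which are active in nearly every cell. Tcf3, now named Tcf7l1, is the most abundant Tcf/Lef factor of embryonic stem cells. It binds a short A- and T-rich core ending in CAAAG, acts mostly as a repressor, and is relieved by beta-catenin when Wnt signals arrive.

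The names were matched to the RefSeq gene table of assembly GRCm38.p6, which tests whether these regions lie between head-to-head genes. Both names of 1376 members matched a gene, and in 979 of these the order and the strands of the genes were known. In 970 of the 979, or 99.1%, the genes were divergent, with their starts facing each other, and in the other 9 they were convergent. The distance covered by a member's probes ranged from 45 to 9983 bp with a median of 2364.5 bp. Only 603 members spanned up to 1000 bp, the size of a bidirectional promoter proper, and 871 covered longer stretches. The short ones had a median GC content of 51.1% and 4.44 CpG per 100 bases, and the long ones 41.6% and 1.12 CpG per 100 bases.

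The following probes carry the results and are shown before their values. They are printed as deposited, 5′ to 3′, with positions as the array gives them, on a build that was not given in the sources used here. Of the 1977 member probes found in a RefSeq promoter window, 1972 read along the plus strand. Capitals mark the Tcf/Lef core, searched on both strands as AACAAAG with its variants ATCAAAG or TACAAAG or TTCAAAG, and among the printed probes only the first of Dnm1-Ciz1 holds it. The first 3 sets are the highest among GC-rich ones, the next 3 are richer in AT and lie in long intervals, and the last set is that of a classic shared promoter that was not called.
Hs2st1-Sep15 probe 1 at chr3:144463055-144463099: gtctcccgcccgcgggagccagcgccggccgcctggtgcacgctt
Hs2st1-Sep15 probe 2 at chr3:144463215-144463259: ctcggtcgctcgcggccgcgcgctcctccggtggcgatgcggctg
Hs2st1-Sep15 probe 3 at chr3:144463359-144463403: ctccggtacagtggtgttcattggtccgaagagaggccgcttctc
Fzd3-Fbxo16 probe 1 at chr14:60121931-60121975: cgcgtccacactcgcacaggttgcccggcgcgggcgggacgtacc
Fzd3-Fbxo16 probe 2 at chr14:60122078-60122122: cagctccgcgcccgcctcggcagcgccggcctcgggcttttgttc
Fzd3-Fbxo16 probe 3 at chr14:60122332-60122376: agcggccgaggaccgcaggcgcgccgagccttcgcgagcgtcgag
Rpl7-Rdh10 probe 1 at chr1:16294005-16294049: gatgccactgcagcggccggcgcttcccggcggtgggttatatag
Rpl7-Rdh10 probe 2 at chr1:16294144-16294188: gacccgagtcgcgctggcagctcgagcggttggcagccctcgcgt
Rpl7-Rdh10 probe 3 at chr1:16294259-16294303: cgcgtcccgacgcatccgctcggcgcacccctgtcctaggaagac
Zfp499-Trim28 probe 1 at chr7:11600924-11600980: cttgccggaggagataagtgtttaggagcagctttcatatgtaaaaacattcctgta
Zfp499-Trim28 probe 2 at chr7:11601230-11601289: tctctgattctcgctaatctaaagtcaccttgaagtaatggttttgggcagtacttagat
Zfp499-Trim28 probe 3 at chr7:11601354-11601413: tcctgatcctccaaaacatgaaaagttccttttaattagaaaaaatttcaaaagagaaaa
Cops3-Nt5m probe 1 at chr11:59925211-59925265: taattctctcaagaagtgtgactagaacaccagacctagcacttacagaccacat
Cops3-Nt5m probe 2 at chr11:59925423-59925482: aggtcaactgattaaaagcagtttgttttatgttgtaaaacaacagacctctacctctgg
Cops3-Nt5m probe 3 at chr11:59925551-59925599: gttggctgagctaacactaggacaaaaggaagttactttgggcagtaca
Dnm1-Ciz1 probe 1 at chr2:32367863-32367922: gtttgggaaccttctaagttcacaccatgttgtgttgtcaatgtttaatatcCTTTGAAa
Dnm1-Ciz1 probe 2 at chr2:32368034-32368087: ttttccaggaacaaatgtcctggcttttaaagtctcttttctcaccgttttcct
Dnm1-Ciz1 probe 3 at chr2:32368210-32368266: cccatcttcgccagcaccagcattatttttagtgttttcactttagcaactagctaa
Hspd1-Hspe1 probe 1 at chr1:55335104-55335148: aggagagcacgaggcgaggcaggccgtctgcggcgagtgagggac
Hspd1-Hspe1 probe 2 at chr1:55335516-55335560: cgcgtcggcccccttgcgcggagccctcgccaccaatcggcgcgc
Hspd1-Hspe1 probe 3 at chr1:55335707-55335751: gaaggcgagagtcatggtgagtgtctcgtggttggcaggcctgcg

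A shared promoter in the narrow sense is shown by the RefSeq windows of Hs2st1 and Selenof (Sep15 on the array), each from 250 bases before to 50 after a start. The window of Hs2st1 at chr3:144570167-144570466 (GRCm38.p6, minus strand) and that of Selenof at chr3:144570177-144570476 (plus strand) have 290 bases in common. Probe 3 of the Hs2st1-Sep15 set lies 106 bp before the start of Hs2st1 and 104 bp before that of Selenof. The window of Selenof has a GC content of 65.7% with 29 CpG and no Tcf/Lef core. That of Hspe1, at chr1:55087898-55088197 (plus strand), shares 285 bases with a window of Hspd1, and has a GC content of 71.0% with 36 CpG and no core. By contrast, the windows of Zbtb45 (Zfp499 on the array) and Trim28 have 0 bases in common, as do those of Cops3 and Nt5m.
Selenof promoter: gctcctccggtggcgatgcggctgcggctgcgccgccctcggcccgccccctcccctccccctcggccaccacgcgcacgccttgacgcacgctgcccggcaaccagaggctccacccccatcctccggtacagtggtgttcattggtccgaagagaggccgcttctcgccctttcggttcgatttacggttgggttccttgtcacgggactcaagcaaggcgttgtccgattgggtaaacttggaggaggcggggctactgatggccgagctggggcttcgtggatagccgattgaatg
Hspe1 promoter: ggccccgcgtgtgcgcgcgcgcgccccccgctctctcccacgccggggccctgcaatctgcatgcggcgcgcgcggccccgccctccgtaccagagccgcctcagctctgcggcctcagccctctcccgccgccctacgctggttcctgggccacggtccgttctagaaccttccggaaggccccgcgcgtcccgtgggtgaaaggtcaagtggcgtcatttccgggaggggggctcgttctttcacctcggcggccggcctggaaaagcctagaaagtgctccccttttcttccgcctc

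Regions named for 2 genes were called enriched less often than regions named for 1 gene, and the difference went with the number of probes that each region holds. Both kinds of region reach beyond promoters. Using all spots, 1977 of 15900 member probes and 17092 of 442329 probes of 1 gene were found in a RefSeq promoter window. A probe was called when it and its nearest neighbours within 1000 bp, together a set of 2 or 3 probes, stood out from the scatter of the array at a set probability under 0.001, and a region was called when 1 of its own probes was. With all spots 84 of 1474 members were called, or 5.7% (95% Wilson interval of counting 4.63 to 7.0), against 12.2% of the regions named for 1 gene (11.7 to 12.7) and 11.5% of all named regions. Another setting kept only spots measured in both channels, leaving out the surrogate values that the software writes for spots not above background, and called 81 members, or 5.5%, against 12.5% of the regions of 1 gene and 11.8% of all named regions. The last setting, called GC-adjusted, took from each measured spot the median of its array's spots of like GC content (bins of 2%) and called 75 members, or 5.09%, against 12% and 11.4%. Members held a median of 8 probes and regions of 1 gene 27, and 288 members had a single probe of their own. When the share called among regions of 1 gene was weighted to the members' own numbers of probes, it was 5.94% for all spots, 4.53% for measured spots and 4.46% when GC-adjusted. The difference of members minus weighted regions of 1 gene was -0.24, 0.97 and 0.63 percentage points in these 3 settings, and each weighted share lay inside the members' interval of counting. This weighting was chosen after seeing the data. For the 440 members with 1 or 2 probes it rests on 176 regions of 1 gene, of which 2, 0 and 0 were called in the 3 settings. Per probe, 0.937% of those named for 2 genes were called using all spots, against 1.15% of those named for 1 gene and 1.14% of all probes. Measured spots gave 1.1%, against 1.34% and 1.33%, and GC-adjusted values 1.12%, against 1.27% and 1.27%.

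**Figure D1:**
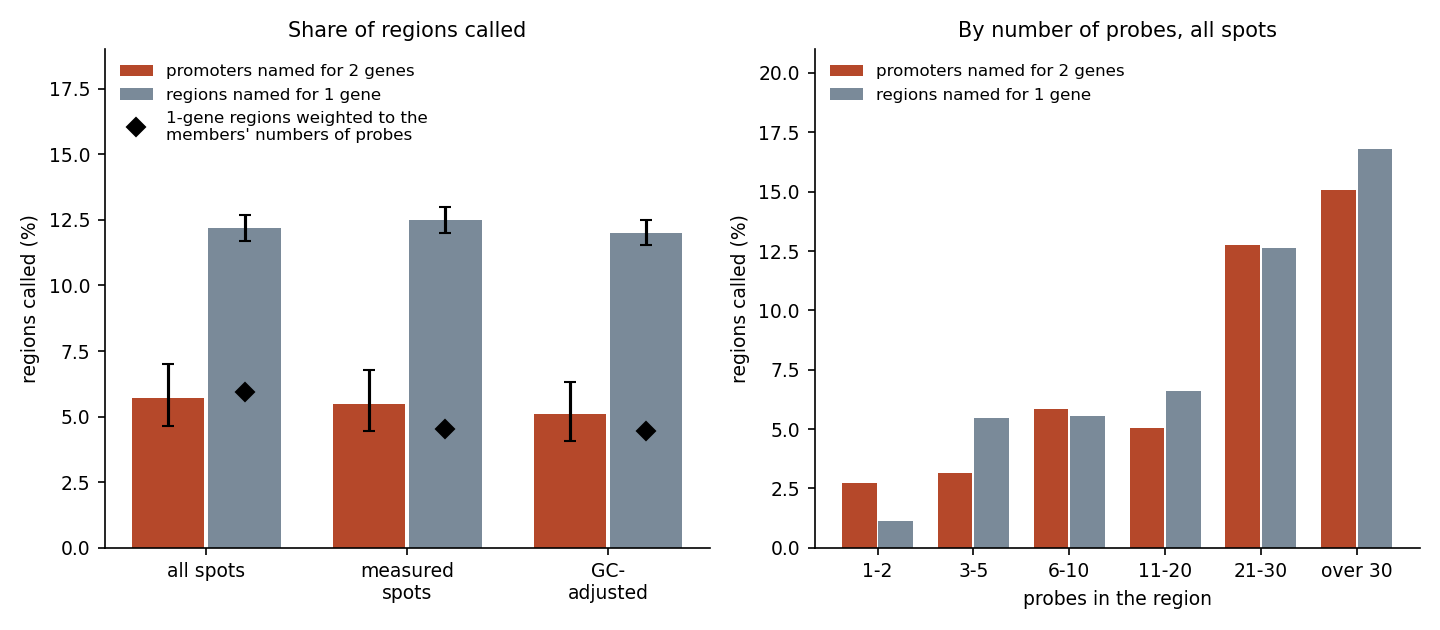
Left, percent of regions called (bars, with 95% Wilson intervals of counting) for promoters named for 2 genes (red) and regions named for 1 gene (grey) in 3 settings; diamonds give the 1-gene regions weighted to the members' numbers of probes, at 5.94%, 4.53% and 4.46%. Right, the same share with all spots by number of probes in the region, where both kinds have their highest shares, 15.1% and 16.8%, in regions of over 30 probes.

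Within regions of like size the order of the shares varied. Among regions of 21 to 30 probes, 12.8% of 188 members were called, against 12.6% of 5812 regions of 1 gene. Among those of 11 to 20 probes the shares were 5.03% of 378 members and 6.59% of 3656 regions of 1 gene, and among those of 3 to 5 probes 3.16% and 5.45%. Other settings parted them more: in measured spots 10.96% of members and 19.5% of regions of 1 gene with over 30 probes were called. Among regions of 6 to 10 probes the shares were 5.85% and 2.94% in measured spots, and 6.34% and 2.03% when GC-adjusted. Members with 1 or 2 probes, whose sets extend into probes named for 1 of the genes, were called in 12 of 440 cases, or 2.73%, against 2 of 176 regions of 1 gene. Their median GC content was 51.7%, against 38.3% in those regions of 1 gene.

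The members called were not the same from setting to setting. Of the 84 called with all spots, 51 were also called with measured spots, and 25 members, or 1.7%, were called in all 3 settings, against 4.19% of the regions of 1 gene (699 regions). In total 147 members were called in at least 1 setting and 1327 in none. The arrays contributed unequally. On array 1, 74 of 759 members were called, or 9.75%, against 20.7% of its regions of 1 gene and 19.8% of all its named regions. On array 2, 10 of 715 members were called, or 1.4%, against 3.44% and 3.18%. Measured spots brought the arrays closer, with 6.85% of members on array 1, against 14.8% and 14.2%, and 4.06% on array 2, against 10.1% and 9.37%. GC-adjusted shares of members were 7.77% on array 1, against 17.2% and 16.5%, and 2.24% on array 2, against 6.66% and 6.22%. Both channels were measured in 73.9% of member probes on array 1 and in 55.2% on array 2. Apart from chromosome 9, each chromosome lies on 1 of the arrays, so array and chromosome cannot be told apart. The highest set mean, taken for each member over all its own probes, had a median of 0.72 over the 1467 members with a set, against 1.12 for regions of 1 gene, and 463 members exceeded 1.

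Calls were split unevenly between short and long intervals, and so were probes. Short members of up to 1000 bp were called in 18 of 603 cases using all spots, 24 in measured spots and 4 when GC-adjusted, or 2.99%, 3.98% and 0.663%. Members with 1 or 2 probes, whatever their interval, were called at 2.73%, 3.86% and 0.682%. These groups overlap, as short members held a median of 2 probes, so their shares cannot tell interval and probe number apart. Long members were called in 66, 57 and 71 of 871 cases, or 7.58%, 6.54% and 8.15%. Of the 25 members called in all 3 settings 23 had a long interval, and 18 of them spanned over 5000 bp. Short members held a median of 2 probes and long ones 15. Short intervals still had the higher typical log ratio: the median over members of their median probe was 0.42 in short ones and -0.11 in long ones with all spots, and 0.28 and 0.00 when GC-adjusted. The short ones were slightly raised as a group.

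The higher ratios lay near the centre of the short intervals. Probes named for the pair or for 1 of its genes were taken around the centre of the 603 short intervals. Within 250 bp, 1606 such probes had a median log2 ratio of 0.37. The short members held only 1243 probes of their own, so some of these bear the name of 1 gene. Of the 603, 514 spanned up to 500 bp, and probes beyond 250 bp lie outside those intervals. Between 250 and 500 bp the median was 0.10. Between 500 and 1000 bp, where the probes lie outside every short interval, it was -0.28. It stayed at -0.27 from 1000 to 1500 bp, and was -0.06 from 3000 to 4000 bp. GC content moved with the signal, from 51.1% at the centre down to 38.3% beyond 1000 bp. When GC-adjusted the same medians were 0.23, 0.03 and -0.17, so the elevation over the centre was smaller. The middle 50% of probes reached from -0.12 to 0.94 at the centre and from -0.70 to 0.27 at 500 to 1000 bp with all spots, which overlap. The share of probes called within 250 bp of the centre depended on the setting. It was 1.81% using all spots (29 of 1606 probes), against 1.15% of all probes named for 1 gene and 2.10% of those inside a RefSeq promoter window. In measured spots it was 3.00% (45 of 1502), against 1.34% and 3.65%. When GC-adjusted it was 0.53% (8 of 1502), against 1.27% and 1.27%. Most probes named for 1 gene, 425237 of 442329 using all spots, lay outside a window. A called probe lay within 2000 bp of the centre in 43 of the 603, or 7.13%, with all spots. It did in 61, or 10.1%, in measured spots and in 31, or 5.14%, when GC-adjusted. Such windows were not counted around regions of 1 gene, so these shares cannot be read as high or low.

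**Figure D2:**
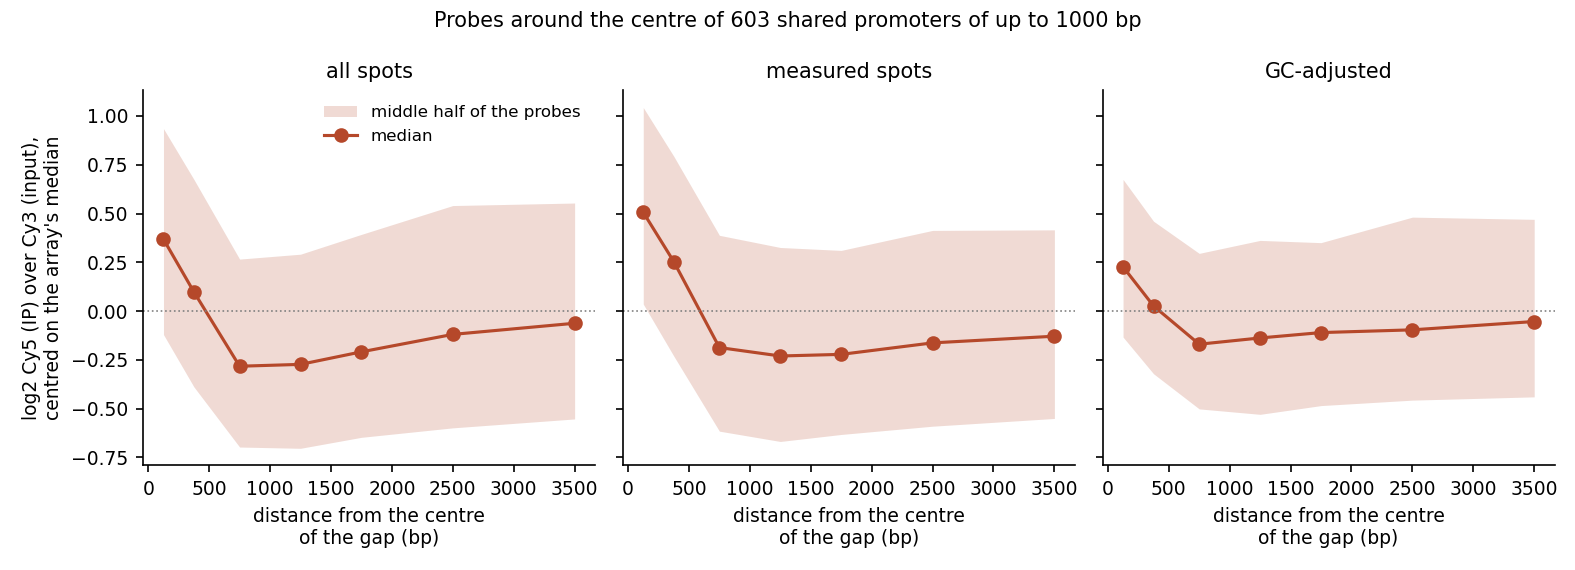
Log2 ratio of immunoprecipitate over input (y) by distance from the centre of the interval (x, bp) for the 603 shared promoters of up to 1000 bp in 3 settings; the line joins medians and the band spans the middle 50% of probes. The median is 0.37, 0.51 and 0.23 within 250 bp and below 0 from 500 bp outward in each setting. Probes are those named for the pair or for 1 of its genes.

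Probes that matched a RefSeq promoter window placed the higher ratios near the starts. The 1977 member probes inside a window had a median log2 ratio of 0.27 with all spots, against -0.11 for the 13923 outside. The 368 probes that lay in windows of 2 genes at the same time had a median of 0.48, and when GC-adjusted 0.31. Regions of 1 gene had 0.33 inside a window, against -0.01 outside. Inside windows 1.06% of member probes were called with all spots, against 2.1% of the probes of 1 gene. In windows and above 65% GC, 7 of 182 member probes were called, or 3.85%, against 182 of 1933 probes of 1 gene, or 9.42%. There the median log ratios were 1.09 and 1.15, and when GC-adjusted the shares were 1.66% and 1.76%.

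The typical ratio of members varied with GC content as it did elsewhere on the arrays. Member probes above 65% GC had a median log2 ratio of 1.11 (n = 357), against 1.11 for 9761 probes of 1 gene. Between 40% and 45% GC both medians were -0.33, and up to 35% GC they were 0.44 in members and 0.66 in regions of 1 gene. Both ends of GC content had raised medians, and they differed in how much was measured. Up to 35% GC only 579 of 2701 member probes were measured in both channels, and above 65% GC 356 of 357. In the measured spots the low-GC median was -0.03. The highest sets of the 84 called members fell at both ends, 47 below 45% GC and 25 above 60%, and 42 of the 84 contained a surrogate. In measured spots 40 of 81 lay above 60% GC, and among GC-adjusted calls 6 of 75.

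**Figure D3:**
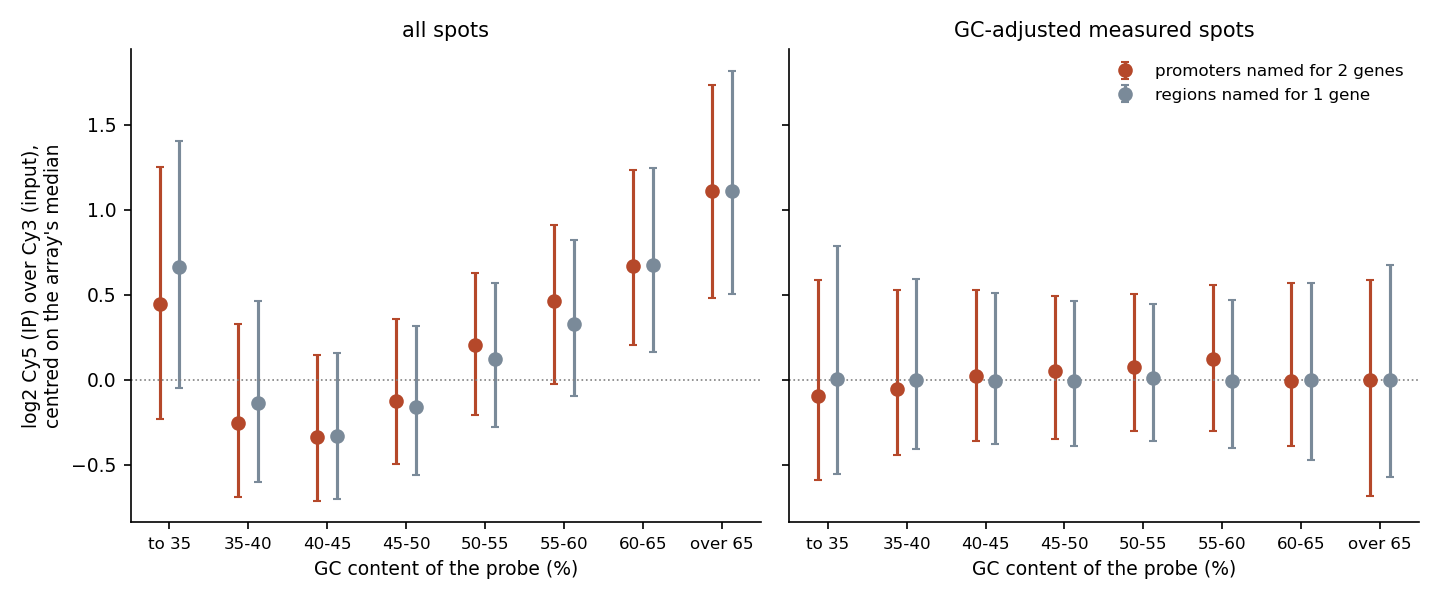
Median log2 ratio of probes (points, with the middle 50% as bars) by GC content of the probe, for promoters named for 2 genes (red) and regions named for 1 gene (grey), with all spots and when GC-adjusted. Both kinds reach a median of 1.11 above 65% GC with all spots, and 0.00 when GC-adjusted.

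The 25 members called in all 3 settings had highest set means of 1.53 to 3.08 on the log2 scale, or 2.90-fold to 8.44-fold over the median probe. In 18 of them no probe of the set was a surrogate. The genes they separate include a Wnt receptor, a chromatin corepressor, ribosomal and signalosome subunits, homeobox genes and odorant receptors. A GC-adjusted or measured-spot value below is the highest set mean of the member in that setting, which can come from another of its sets. Values and calls of a gene's own region are those using all spots unless another setting is named. Of the 25, 22 kept their call with normexp signals, 20 using the software's own log10 ratio (the 5 lost all have an Olfr gene), 23 without marked spots and 18 at a set probability of 0.0001.

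Hs2st1-Sep15 had the highest set of all members. Hs2st1 adds sulfate to heparan sulfate chains, which bind growth factors and Wnt proteins at the cell surface, and Sep15 (Selenof) is a selenoprotein of the endoplasmic reticulum. Its probes, over 349 bp of chromosome 3, gave 3.31, 4.62 and 1.31, a mean of 3.08 ± 1.66 (SD, 3 probes), or 8.44-fold. The middle probe read 9938 in Cy5, against 478.8 in Cy3. The set was 72.6% GC, and when GC-adjusted its mean was 1.67. The outer probe on the side of Hs2st1 bears that gene's name alone, and the own region of Hs2st1 was called as well, with a highest set mean of 2.82, whereas that of Sep15 reached 1.07 and was not called. When GC-adjusted neither own region was called.

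Fzd3-Fbxo16 is the member that touches Wnt reception most directly. Fzd3 is a Frizzled receptor and Fbxo16 an F-box protein of a ubiquitin ligase. Its set on chromosome 14 gave 3.00, 1.84 and 3.30, a mean of 2.71 ± 0.77 (SD, 3 probes), with all channels measured and 76.3% GC. The mean was 1.47 when GC-adjusted, and the median over its 9 probes was 0.39, so that the high probes were a part of its 1838 bp. The own region of Fbxo16 was not called.

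Zfp499-Trim28 was as high after the GC adjustment as before it. Trim28 is the corepressor that zinc finger proteins recruit to silence retroelements in embryonic stem cells, and Zfp499, now Zbtb45, encodes a zinc finger protein. The 3 probes, of 35.1% GC, gave 3.20, 2.68 and 2.20, a mean of 2.69 ± 0.50 (SD), and 2.92 when GC-adjusted. The first probe read 15520 in Cy5, against 1998 in Cy3, while the last, with Cy5 at 172.6, was a surrogate. The own region of Trim28 was called, with a highest set mean of 2.58, and that of Zfp499 reached 1.07 and was not. When GC-adjusted the calls were the other way round, at 1.19 for Trim28, not called, and 1.40 for Zfp499, called.

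Rpl7-Rdh10 lies between a gene for a protein of the large ribosomal subunit and Rdh10, which oxidises retinol on the way to retinoic acid. Its 3 probes on chromosome 1 gave 3.22, 2.15 and 2.59, a mean of 2.65 ± 0.54 (SD), with 70.4% GC and all channels measured. When GC-adjusted the mean was 1.36. It was the only called member among the 51 with a gene of translation.

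Cops3-Nt5m rested on a single high probe. Cops3 is a subunit of the COP9 signalosome and Nt5m a nucleotidase of mitochondria. The probes gave 1.08, 1.29 and 4.86, a mean of 2.41 ± 2.12 (SD, 3 probes), and the last read 2145 in Cy5, against 75.6 in Cy3. In measured spots the highest set mean was 3.26, and when GC-adjusted 3.36, the highest of any member in both settings. Without spots carrying an outlier or saturation mark this member was no longer called.

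Ifitm2-Ifitm1, between genes for interferon-induced membrane proteins, gave 1.503, 3.27 and 2.42, a mean of 2.40 ± 0.88 (SD, 3 probes), and 2.75 when GC-adjusted. Its middle probe read 13657 in Cy5, against 1675 in Cy3. Neither gene's own region was called, at 0.72 and 0.70, so the signal lay in the 7792 bp between them. In 4932413O14Rik-Shrm, next to Shroom3, an actin-binding protein of neural tube closure, the set had only 2 probes, at 1.58 (a surrogate) and 3.54.

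**Figure D4:**
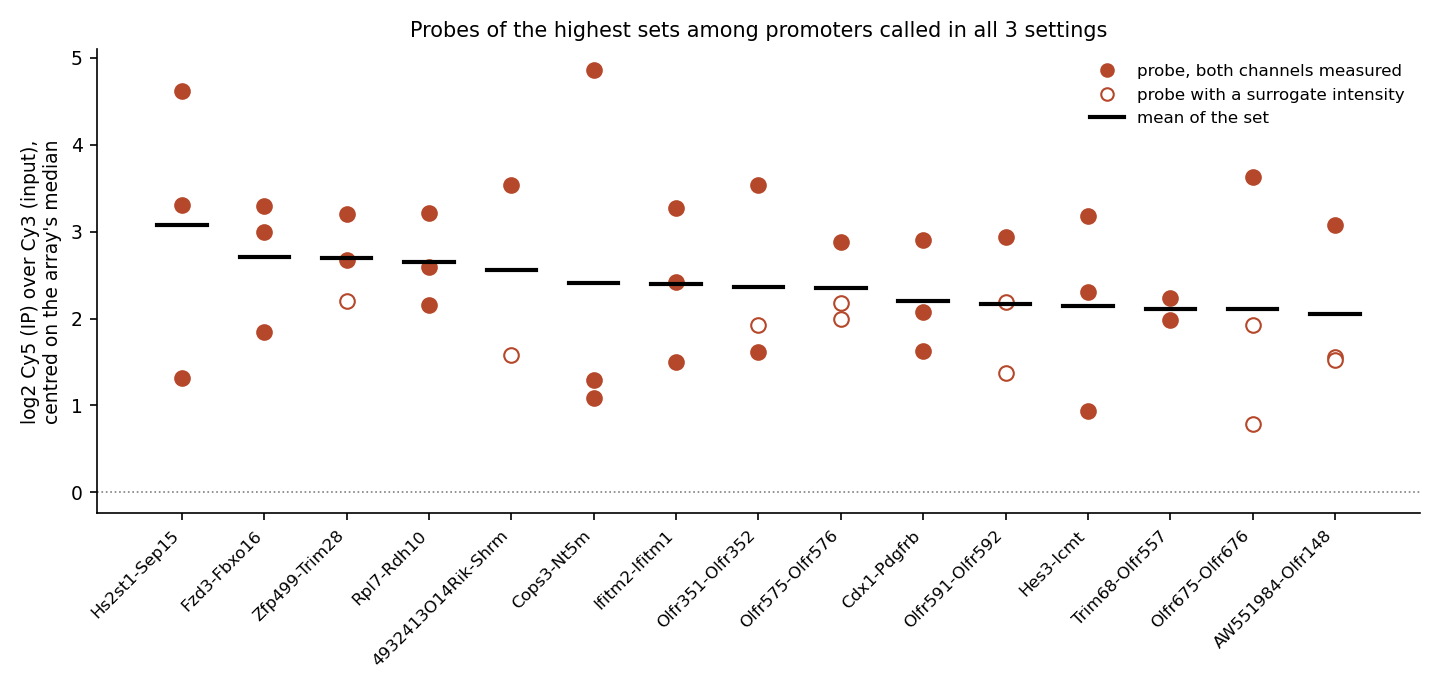
Log2 ratio of immunoprecipitate over input for each probe (points) of the highest set of the 15 shared promoters with the highest set means among those called in all 3 settings, with the mean as a black line. Open points are surrogates, which occur in 7 of the 15 sets, and single probes stand far above their neighbours in Cops3-Nt5m (4.86) and Hs2st1-Sep15 (4.62).

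Other members called in all 3 settings, named here after their values were seen, include several between a gene of development or signalling and a neighbour. Tlx2-Pcgf1 joins a homeobox gene of neural crest and a Polycomb protein, and gave 2.34, 2.00 and 1.32, a mean of 1.89 ± 0.52 (SD, 3 probes), with the own region of Tlx2 also called, at 2.00. Mesdc1-Mesdc2 joins Tlnrd1 and Mesd in current names, and Mesd is a chaperone of the Wnt coreceptors of the Lrp family. Its set gave 0.78, 1.98 and 2.13, a mean of 1.63 ± 0.74 (SD, 3 probes), with the own region of Mesdc1 called, at 2.40, but not when GC-adjusted. The call of the member was lost without marked spots and at a set probability of 0.0001. Dnm1-Ciz1 gave 2.84, 0.40 and 1.88, a mean of 1.71 ± 1.23 (SD, 3 probes). Its first probe holds the core CTTTGAA in the orientation printed above. With all spots the only called probe of the set was the middle one, which has no core. The call of Dnm1-Ciz1 was lost at a set probability of 0.0001. Drap1-AI837181, which besides Hs2st1-Sep15 is the only short member called in all 3 settings, gave 2.06, 1.03 and 2.03. The first probe lies 18 bp before the start of Drap1, a subunit of a transcriptional repressor, and 146 bp before that of AI837181. The middle probe lies 166 bp before the start of Drap1 and 2 bp after that of AI837181. The call of Drap1-AI837181 was also lost at a set probability of 0.0001. Cmpk-Stil, next to a centriole duplication factor, had a mean of 1.98 ± 1.23 (SD, 3 probes).

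Few members held a gene of stem cells or signalling, and none of these spanned up to 1000 bp. Of the 7 members with such a gene 2 were called using all spots, 2 in measured spots and 3 when GC-adjusted, beside 5.7%, 5.5% and 5.09% of all members and 11.5%, 11.8% and 11.4% of all named regions. Their median highest set mean was 0.78, against 0.72 over all members. The 2 called throughout were Fzd3-Fbxo16 and Zfp499-Trim28. Tdgf1-Lrrc2 was called only when GC-adjusted. Tdgf1, or Cripto, is the Nodal coreceptor and is strongly expressed in embryonic stem cells. Its probes gave 1.19, 1.80 and 1.04, a mean of 1.35 ± 0.40 (SD, 3 probes) with all spots and 1.62 when GC-adjusted, while the own region of Tdgf1 reached only -0.12. Members with Wnt ligand genes were not called: Wnt10b-Wnt1 had a highest set mean of 0.67 (2 probes at 1.26 and 0.08) and Wnt5b-Fbxl14 0.78 (2 probes at 1.44 and 0.12), although the own region of Fbxl14 was called, at 2.61. Tle6-BC025920, with a gene of the Groucho corepressor family, had 0.65, and Dkkl1-Tead2, with a Dickkopf-like gene and a partner of the Hippo pathway, had 0.61. All 7 had long intervals of 1838 to 8365 bp.

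Members matched by name to a developmental transcription factor had more calls than members as a whole, and also more probes, with a median of 21.5 against 8. Of the 22 members with such a gene, 4 were called using all spots, 7 in measured spots and 5 when GC-adjusted, which is 18.2%, 31.8% and 22.7%, beside 5.7%, 5.5% and 5.09% of all members. Their median highest set mean was 1.38 with all spots and 0.83 when GC-adjusted, beside 0.72 and 0.53 over all members. Members with 21 to 30 probes were called at 12.8%, 9.57% and 9.57%, and those with over 30 at 15.1%, 10.96% and 20.5%, with medians of 0.97 and 1.14 using all spots. The part of probe number in the higher values was not tested. The list goes by name: it holds Foxred1-Srpr, where Foxred1 is an oxidoreductase of mitochondria, and does not hold Tlx2-Pcgf1. Without Foxred1-Srpr the calls were 4, 7 and 5 of 21. Cdx1-Pdgfrb, between a caudal homeobox gene that Wnt signals activate and a growth factor receptor gene, gave 2.07, 2.91 and 1.63, a mean of 2.20 ± 0.65 (SD, 3 probes), and 1.73 when GC-adjusted, and its first probe holds a Tcf/Lef core. The own region of Cdx1 was called too, at 2.12. Hes3-Icmt, between a Hes repressor gene and an enzyme that methylates prenylated proteins, gave 0.93, 3.19 and 2.31, a mean of 2.14 ± 1.14 (SD, 3 probes), with the own region of Icmt called, at 1.83, but not when GC-adjusted. These 2 were called in all 3 settings.

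The other members with a developmental factor were named after their values were seen, apart from 5930416I19Rik-Foxm1 and Lmx1b-C130021I20. Evx2-Hoxd13, at the end of a Hox cluster, had the highest set mean of the list, 2.54 ± 1.73 (SD, 3 probes), from 1.67, 1.42 and 4.53. The high probe bears the name of Hoxd13 alone, and the member itself was called only when GC-adjusted. Zic5-Zic2 gave 1.80, 2.19 and 1.22, a mean of 1.74 ± 0.49 (SD, 3 probes), and was called with measured spots and when GC-adjusted. 5930416I19Rik-Foxm1, a member of 45 bp at a cell cycle factor, had 0.81, 3.31 and 1.32, and its mean of 1.81 was 0.61 when GC-adjusted, where it was not called. Lmx1b-C130021I20 gave 1.86, 1.86 and 1.41, a mean of 1.71 ± 0.26 (SD, 3 probes), which was 0.72 when GC-adjusted. At the low end were LOC544810-Hoxb3 at 0.34, Sox8-2400010G15Rik at 0.69 and Foxh1-Ppp1r16a at 0.70, none of them called in any setting.

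Most lists of housekeeping genes, the usual partners of bidirectional promoters, had few calls, and the members of all these lists had few probes. The median was 4 probes for mitochondrial proteins, 2.5 for DNA replication and repair and for histones, 5 for translation and 3 for RNA processing, against 8 over all members. Members with 3 to 5 probes were called at 3.16%, 3.68% and 1.58% in the 3 settings, so that counts of 0 to 2 in these lists do not set them apart. Mitochondrial proteins had 2 of 67 members called using all spots, 1 in measured spots and 2 when GC-adjusted, with a median highest set mean of 0.68. The highest called was Oaz3-Mrpl9, next to a protein of the mitochondrial ribosome, at 0.63, 3.40 and 1.60. DNA replication and repair had 0 of 44 called with all spots, which allows a share of up to 6.82% by counting alone, and 1 in each of the other settings, with a median of 0.49. Histone genes had 0 of 18 called in each setting, which allows a share of up to 16.7%, and the lowest median of any list using all spots, 0.05. Translation had 1 of 51, the member Rpl7-Rdh10. RNA processing had 5 of 64 called with all spots, or 7.81%, and 4 with measured spots, or 6.25%, but 0 when GC-adjusted. The first 2 shares were above the 5.7% and 5.5% of all members, and above those of members with 3 to 5 probes. Among the called members of this list Hnrpdl-2310057D15Rik, at a gene for an RNA-binding protein, gave 2.31, 0.72 and 3.06. Noc4l-Ddx51, of ribosome assembly, gave 1.73, 2.27 and 1.28. Both calls held in measured spots. Snrp70-Kcna7 was at 2.31 with both probes surrogates, and at 0.79 in measured spots. The ubiquitin list had 5 of 81 called with all spots, or 6.17%, near the 5.7% of all members. Of these, 4 were called in all 3 settings: Fzd3-Fbxo16, Zfp499-Trim28 and Cops3-Nt5m, described above, and Trim68-Olfr557 with 1.98 and 2.24. Transcription and chromatin had 4, 7 and 6 of 78 called, or 5.13%, 8.97% and 7.69%, beside 5.7%, 5.5% and 5.09% of all members. Membrane traffic had 3, 3 and 2 of 60, or 5%, 5% and 3.33%. The list of membrane traffic took in Cops3-Nt5m by its name, and without it had 2, 2 and 1 of 59. Cell cycle had 2, 3 and 1 of 31, or 6.45%, 9.68% and 3.23%, with Cdkn2c-Faf1 at 1.59 and 0.58 when GC-adjusted. Extracellular matrix had 0, 1 and 2 of 13, or 0%, 7.69% and 15.4%.

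**Figure D5:**
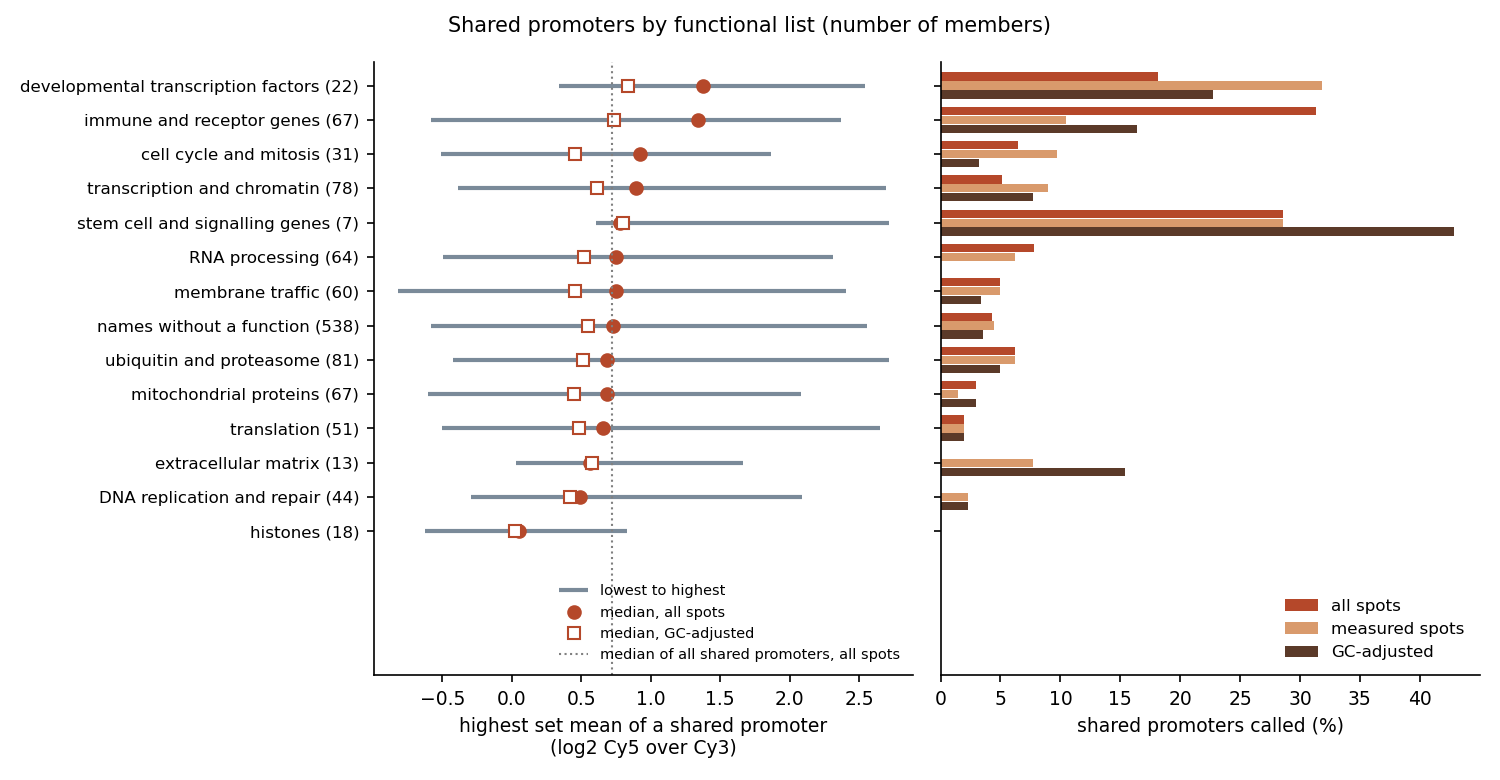
Left, the highest set mean of shared promoters by functional list (number of members in brackets): median with all spots (filled), median when GC-adjusted (open) and range (line), with the median of all 1474 dotted at 0.72. Right, percent of each list called in 3 settings; developmental factors reach 18.2%, 31.8% and 22.7%, and histones are at 0 in each.

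The pairs and single genes that were looked up by name were not called. All 13 members with a fixed pair or gene were without a call in each of the 3 settings. Their highest set means ran from -0.14 to 1.05. Not all of the 13 are classic pairs, as members with Pcna, Timm23 or an Rpa gene were taken by that gene alone. Pcna-Cds2 and Smpdl3b-Rpa2 span 9845 and 7334 bp. Of the 13, 9 have 1 to 3 probes, and members with 1 or 2 probes were called at 2.73% using all spots, so a count of 0 is near what members of this size show. Rpa3-Glcci1, with a subunit of the single-strand binding protein of replication, was highest, at 1.05 ± 0.44 (SD, 3 probes). In RefSeq its genes are divergent with other genes between them. Col4a1-Col4a2, the collagen genes of basement membranes, gave 0.80, 1.62 and 0.51, a mean of 0.97 ± 0.58 (SD, 3 probes), which was -0.39 when GC-adjusted. Hspd1-Hspe1, the mitochondrial chaperonin and its partner, gave 0.80, 1.45 and 0.47, a mean of 0.90 ± 0.50 (SD, 3 probes), and -0.43 when GC-adjusted. Both lie at 71% to 72% GC, where the typical probe of the arrays is itself above 1. Gart-Son had 0.96, Psmb9-Tap1 0.82, Pcna-Cds2 0.80 with 3 surrogates, Smpdl3b-Rpa2 0.70, Brca1-Nbr1 0.55 and Sirt3-Psmd13 0.42. Lowest were Mcm4-Prkdc at 0.08 (0.39, -0.49 and 0.34), Timm23-Parg at -0.04, Mrps12-Sars2 at -0.11 and Wdr79-Trp53 at -0.14 (-0.02, 0.06 and -0.45), the last between the tumour suppressor p53 and Wrap53. The pairs Ppat-Paics, Surf1-Surf2 and Atm-Npat were not analysed here. The lowest of all members were Rab15-Fntb at -0.82, Stra13-Lrrc45 and Cabp4-Gpr152 at -0.65, Hist1h2ae-Hist1h2bg at -0.63 and Arih2-Slc25a20 at -0.60.

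Odorant receptor genes, which are silent outside sensory neurons, were frequent among the calls using all spots. Of the 30 members with an Olfr gene on both sides, 17 were called using all spots, 5 in measured spots and 9 when GC-adjusted, against 67, 76 and 66 of the 1444 other members. Their median GC content was 34.9% with 0.28 CpG per 100 bases, and only 22.1% of their probes were measured in both channels, against 66.3% in the others. Of their 55 called probes 44 were surrogates, against 28 of 94 in the others. Without surrogates some sets lost their height: Olfr668-Olfr669 had a highest set mean of 2.37 using all spots and 0.20 in measured spots. Others stayed high in measured spots: Olfr351-Olfr352 had 1.92 (a surrogate), 1.61 and 3.54, a mean of 2.36 ± 1.04 (SD, 3 probes), and 2.62 in measured spots. Its last probe read 4283 in Cy5, against 434.4 in Cy3. Olfr575-Olfr576 had a single measured probe at 2.88 beside surrogates at 2.18 and 1.99, and Olfr591-Olfr592 a measured probe at 2.94 beside 2.19 and 1.38. Both lost their call with normexp signals and with the log10 ratio.

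Some called shared promoters lay beside a called region named for 1 of their genes. Among the 84 called members, the own region of 1 or both genes was called in 39.3%, against 9.57% of the 1390 members not called, and when GC-adjusted the shares were 22.7% and 10.7%. Sets at the edge of a member contain probes of the neighbouring region, so the calls share probes. Both own regions were called in 1 of the 84 with all spots. Among the 25 called in all 3 settings, 1 own region was called in 10 and both in 0.

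The Tcf/Lef core was found in few probes, called or not. It stood in 10 of 149 called probes, or 6.71%, against 865 of 15751 probes not called, or 5.49%, with all spots, and in 4 of 113, or 3.54%, against 4.51% with measured spots. GC-adjusted calls held it in 8 of 116, or 6.90%, against 4.47%. In regions of 1 gene the shares were 5.83% against 5.68% using all spots, and 6.67% against 4.47% when GC-adjusted. Up to 35% GC, the range of GC content with the most called probes using all spots, 5 of 71 called member probes held it, or 7.04%, against 8.21% of those not called. When GC-adjusted it was 1 of 18 there, or 5.56%, against 8.20%. Between 35% and 40% GC the order was the other way. There 3 of 25 called member probes held it with all spots, or 12%, against 7.38%, and 5 of 44 when GC-adjusted, or 11.4%, against 6.75%. Promoter windows of member genes held the core in 315 of 2903 cases, or 10.9%, against 16.9% of all 32851 windows of that length in RefSeq, and in 6 of 44 windows of the genes of members called in all 3 settings. A match describes letters and not a site of binding.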

How the data were processed

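Members and lists were chosen with earlier results of these data known. Cy5 carried immunoprecipitated DNA and Cy3 input DNA, per the labels. The deposited scanner tables were written by Agilent Feature Extraction (version 9.1.1.1 in their headers). Their processed signal is an intensity per channel that the software had background-subtracted and dye-normalized for the authors, with a surrogate where a spot was not above background. A log10 ratio of both channels, also in the authors' tables, served as an alternative. The labels list several antibodies, and Tcf3 is taken from the sample titles.

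Log2 ratios of processed signals were centred on each array's median, without spots marked as non-uniform (9 on array 1, 18 on array 2). The scale came from values below the median (0.72 on array 1, 0.78 on array 2). A probe was called when the probability of its set mean, scaled on sets of the same size, was below 0.001 and the probes themselves met the neighbourhood criterion that the labels name, applied at 0.001 and 0.1 or at 0.005. Each array was called alone, and the caller was tested on simulated data. Gene names and promoter sequences came from RefSeq tables of GRCm38.p6. The arrays' number limits the precision.

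Named members are the 15 with the highest set mean among those called in all 3 settings and the 4 highest called in each list. Also named are the fixed pairs and genes and every member of the stem cell and signalling list. The 5 lowest called members and the 5 lowest of all complete them. Others are marked as chosen after their values were seen. A member belongs to a list when either gene name matches. Alternatives changed spots, signal, background correction (limma 3.58.1), set probability, neighbour distance, probe number and member rule. Python 3.11.15, pandas 2.3.3, numpy 2.4.6 and scipy 1.17.1 were used.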

Additional observations from a re-analysis of the deposited data

How the results depend on the processing

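The count of 84 called members was 48 with the software's log10 ratio, 46 at a set probability of 0.0001, 51 among the 961 members that are divergent neighbours and 478 with normexp signals, where 46.9% of the regions of 1 gene were called too. The difference to regions of 1 gene, -6.47 percentage points, was -4.29 with the log10 ratio, -4.70 and -8.62 at set probabilities of 0.0001 and 0.01, and -14.5 with normexp. The other alternatives chosen at the outset gave differences of -5.33 to -6.99. With regions of 1 gene weighted to the members' numbers of probes, a choice made after seeing the data, the difference was -0.24 using all spots, 0.97 in measured spots and 0.63 when GC-adjusted. Of the 84 members, 51 were also called in measured spots and 30 when GC-adjusted. Among the 86 named members, the highest set mean moved by over 1 set SD in 19 when GC-adjusted, in 16 with normexp and in 8 in measured spots. No paired analysis was possible because each group has 1 array and the arrays share no regions to compare. Signal over background limits array 2 most. With no replicate and no control immunoprecipitation, binding and any other source of enrichment cannot be told apart.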

Other observations

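Immune and receptor genes, most of them odorant receptors, had 21 of 67 members called using all spots, or 31.3%. In measured spots 7 were called, or 10.4%, and when GC-adjusted 11, or 16.4%. The median highest set mean of the 67 was 1.34 using all spots and 0.71 in measured spots, beside 0.72 and 0.71 over all members. Members whose names tell no function, 538 in number, were called in 23, 24 and 19 cases, or 4.28%, 4.46% and 3.53%. Their median of 0.73 lay next to that of all members. Among all members the shares called were 5.7%, 5.5% and 5.09%.

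Some members with a fixed pair or gene lay beside a called region named for 1 of their genes although the shared stretch was not called. Using all spots, the own region of Rpa3 reached 1.85 and was called, against 1.05 for Rpa3-Glcci1, but it was not called in measured spots (1.72) or when GC-adjusted (1.57). The own region of Nbr1 was called at 1.71 using all spots and at 1.41 when GC-adjusted, but not in measured spots (1.32). Brca1-Nbr1 had 0.55 using all spots. The own region of Trp53 was called in measured spots, at 1.95, and when GC-adjusted, at 2.06, against 0.05 and 0.25 for Wdr79-Trp53. Six4-Mnat1, next to a homeobox gene and chosen after its values were seen, had a highest set mean of 1.77 from a probe at 2.47 and a surrogate at 1.08, and 0.32 in measured spots.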
